A study of Mus musculus with 16 samples.

Results

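The comparison described here set morphine-treated against naive mice that carry the RGSz1 KO label, a knockout of the RGSz1 protein encoded by Rgs20. It used 8 of the 16 polyA RNA libraries of the series, chosen by their titles: 4 labelled knockout and naive, and 4 labelled knockout and morphine. Each library was made from periaqueductal gray punches of male mice, with 2 animals pooled per library, and the labels give no age, strain, dose, route or duration. The labels mention no vehicle injection, and effects of handling cannot be told apart from those of the drug. The other 8 libraries, wild-type naive and wild-type morphine, 4 each, entered the same model and serve below only to show where the response with the knockout label differed. Nothing in the labels gives an extraction or sequencing batch.

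The periaqueductal gray is a midbrain region around the cerebral aqueduct whose output neurons drive descending control of pain, and it is a main site at which opioids relieve pain. Morphine acts there through the mu opioid receptor, which couples to inhibitory G proteins that lower cyclic AMP and open potassium channels. RGS proteins speed up the switching off of such G proteins, and RGSz1 acts by preference on the G protein subunit encoded by Gnaz. Opioids also act on the stress axis and raise circulating glucocorticoids in rodents. The dorsal raphe, which holds serotonin neurons, lies within the ventral part of the gray, and the oculomotor and trochlear motor nuclei and the locus coeruleus lie close by.

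Rgs20 itself did not separate the labels. In the knockout-labelled naive libraries it stood at 12.3, 11.9, 12.3 and 14.0 CPM (counts over the TMM-scaled library total, times 1000000), and in the morphine libraries at 13.0, 12.0, 11.4 and 11.9. The wild-type libraries held 11.6, 13.0, 13.4 and 13.1 CPM in naive and 14.4, 13.3, 11.9 and 12.7 CPM in morphine animals. All 4 groups overlapped, and the log2 fold change with morphine at the knockout label was -0.06 ± 0.07 (SE, adjusted p = 0.644). The counts hold 1 number per gene and do not show which exons were read, and the gene shares 268 bases with Atp6v1h on the other strand. The animals are therefore called knockout by label only.

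Counts over genes came to 55.0, 43.0, 27.7 and 45.6 M (1 M is 1000000 counts) in naive libraries 1 to 4 and to 31.4, 19.1, 20.1 and 38.9 M in morphine libraries 1 to 4, so the morphine group was the shallower. With every library thinned to 19.1 M counts, 1645 genes were called, against 2082 at full depth. Markers of the midbrain and tectum summed to 226 to 301 CPM over the 8 libraries, against 23.5 to 34.2 CPM for markers of the forebrain. In a principal component analysis of the 8 libraries, the first component held 29.0% of the variance and separated the groups, with naive libraries from -22.5 to -15.6 and morphine libraries from 12.8 to 27.4. The second component, 22.0% of the variance, spread the morphine libraries from -25.8 (library 2) to 35.3 (library 3), while the naive libraries stayed between -4.23 and 0.0011. The morphine libraries thus differed more among themselves than the naive ones did.

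Of 18111 genes tested, 1026 were higher with morphine (5.67%) and 1056 lower (5.83%) at an adjusted p under 0.05 (edgeR quasi-likelihood F-test, p-values adjusted by Benjamini-Hochberg, n = 4 per group). The median log2 fold change over all tested genes was -0.00034. Most of the called changes were small: 208 of the higher and 141 of the lower genes passed 1.5-fold, and 93 and 27 passed 2-fold. The 4 values of each group did not overlap in 1497 higher genes (8.27%) and 1591 lower genes (8.78%). The number called rested on some libraries: it was 1037 without naive library 2, 1302 without naive 4, 1248 without morphine 2 and 1301 without morphine 4, against 1566 to 2260 without any other knockout library. In all, 888 genes were called in the main fit and also without each of the 8 libraries in turn.

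The serotonin neuron markers moved with the treatment groups, and this has to be read beside every list below. Summed over 15 markers, they came to 671, 687, 516 and 795 CPM in naive libraries 1 to 4 and to 983, 2033, 907 and 2103 CPM in morphine libraries 1 to 4. Without morphine libraries 2 and 4, which held the most, 359 genes were called. Without morphine 1 and 3, the same number of libraries, 1712 were called. With the mean log2 level of these markers as a covariate, 354 were called. That score did not overlap between the groups, at -1.41 to -0.36 in naive and 0.035 to 1.15 in morphine libraries. Score and treatment can thus be told apart only in part, and the drop in calls does not show which of them it follows. Of those 354, 264 were among the 2082 of the main fit, all 264 with the same sign. In these bulk tissue punches, more or fewer cells of a type and more or less RNA per cell cannot be told apart, and the part of the marker content in the other changes was not tested.

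The genes with the smallest p-values among the higher ones included known responders to stress hormones and to cell activity. Cdkn1a, a cell cycle inhibitor on chromosome 17 at 29090976 to 29100727 (GRCm38, plus strand), stood at 6.75, 6.82, 8.00 and 9.21 CPM in naive and at 24.8, 32.1, 34.5 and 30.2 CPM in morphine libraries. Every morphine library was above every naive one by a wide gap, and the log2 fold change was 1.98 ± 0.16 (adjusted p = 1.38e-05), or 3.95-fold. Nrros, which encodes a membrane protein of microglia that anchors latent TGF-beta, went from 5.12, 5.55, 4.36 and 5.75 to 9.90, 12.2, 14.1 and 11.6 CPM. Its groups did not overlap either (1.19 ± 0.11, adjusted p = 1.38e-05).

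Tma16, a ribosome biogenesis gene, had 9.89, 12.5, 10.2 and 12.3 CPM in naive and 18.1, 20.7, 24.6 and 20.6 CPM in morphine libraries, a log2 difference of 0.89 ± 0.10. Ass1, argininosuccinate synthase of the citrulline cycle that supplies arginine, had 42.5, 39.4, 41.4 and 41.8 and 50.0, 54.2, 50.7 and 54.5 CPM, a smaller step of 0.34 ± 0.04. Trp53inp1, a p53-induced autophagy gene, rose by 0.56 ± 0.07, Fam214a by 0.42 ± 0.05, Vwa5a by 0.53 ± 0.07, and the neuronal transcription factor gene Bhlhe22 by 0.57 ± 0.08. A pair of receptor genes stood in the same group. Npy2r, a receptor for neuropeptide Y, went from 4.44, 4.59, 5.44 and 5.64 to 7.66, 9.20, 7.75 and 9.41 CPM (0.76 ± 0.10). Gabre, the epsilon subunit of the GABA-A receptor, went from 7.22, 5.69, 6.66 and 6.01 to 10.1, 12.2, 8.75 and 11.4 CPM (0.73 ± 0.10).

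Among the lower genes, Sall1 had the smallest p of all. It encodes a zinc finger transcription factor that in adult brain is known from microglia, and lies on chromosome 8 at 89027235 to 89044162 (minus strand). Its levels were 33.1, 32.4, 30.7 and 32.2 CPM in naive and 21.0, 19.6, 20.3 and 20.8 CPM in morphine libraries, tight within each group, and the log2 fold change was -0.65 ± 0.05 (adjusted p = 4.73e-07). Tmem98, which is expressed in the oligodendrocyte lineage, fell from 17.1, 21.0, 17.4 and 18.1 to 11.0, 10.7, 10.5 and 9.79 CPM (-0.81 ± 0.08). Pik3c2b, a class II phosphoinositide 3-kinase, went from 59.8, 64.7, 61.1 and 58.5 to 41.8, 39.4, 38.6 and 36.5 CPM (-0.64 ± 0.06). All 3 kept the gap between the groups in every library.

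Further genes with small p-values were lower with separate groups too. Arhgef2, a microtubule-bound guanine nucleotide exchange factor, was at -0.45 ± 0.04, the iRhom-binding adaptor gene Frmd8 at -0.68 ± 0.07, and the muscle atrophy ubiquitin ligase gene Fbxo32 at -0.73 ± 0.08. Rasgrp3, an activator of Ras, was at -0.74 ± 0.09, the ERK phosphatase Dusp7 at -0.40 ± 0.05, and the clock-linked repressor Bhlhe40 at -0.40 ± 0.05. Vegfa, the main growth factor of blood vessels, fell from 81.3, 89.3, 95.7 and 90.0 to 63.0, 66.9, 66.2 and 66.6 CPM (-0.44 ± 0.05, adjusted p = 1.46e-04). Each of these 7 genes was still called without any 1 of the 8 libraries.

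**Figure D1:**
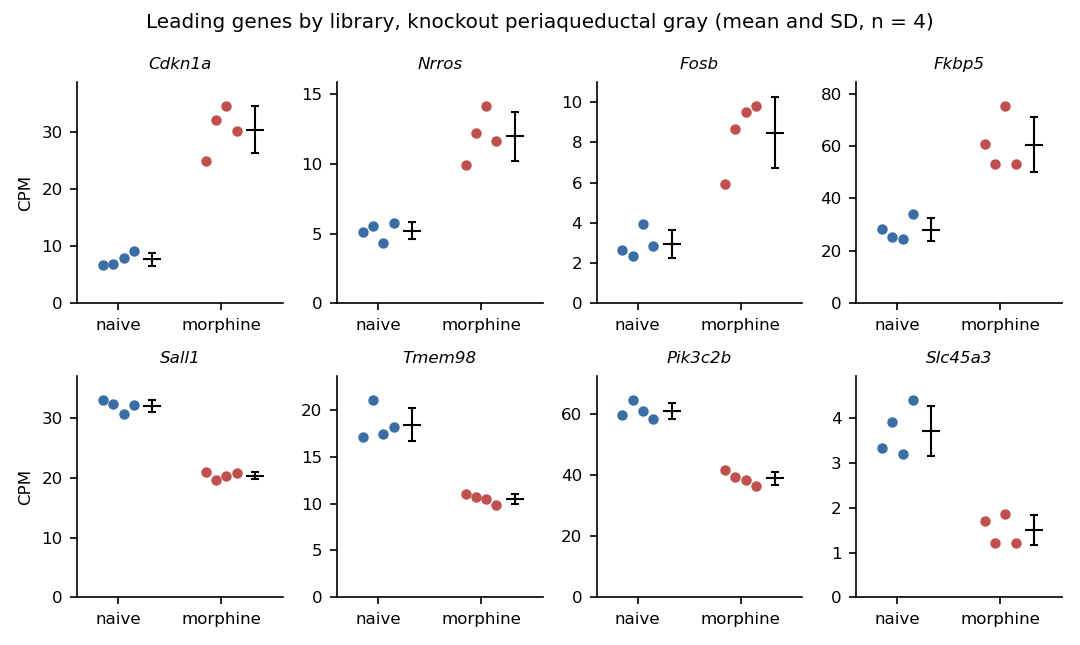
CPM of 8 leading genes in each of the 8 knockout-labelled libraries (points, libraries 1 to 4 from left to right; naive blue, morphine red), with mean and SD beside them (n = 4). In every panel the 4 morphine points lie wholly above or wholly below the 4 naive points.

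By size rather than p, and leaving out genes whose mean log2 CPM was under 1, the largest called decreases were those of Tnfsf10, Slc45a3 and Trim59. Tnfsf10, a death ligand, had 3.16, 3.00, 3.49 and 2.70 CPM in naive and 1.68, 0.476, 1.16 and 1.13 CPM in morphine libraries (-1.41 ± 0.23). Slc45a3, a sugar transporter found in myelinating cells, had 3.34, 3.91, 3.21 and 4.41 and 1.71, 1.22, 1.86 and 1.21 CPM (-1.32 ± 0.18). The ubiquitin ligase gene Trim59 had 26.8, 30.6, 30.5 and 27.8 and 18.9, 10.7, 10.5 and 9.25 CPM (-1.21 ± 0.18), and morphine library 1 stood above the other 3 morphine libraries. Nipal4 (-1.10 ± 0.17), the extracellular matrix gene Adamtsl4 (-1.06 ± 0.12), the transcription factor gene Zfp366 (-0.97 ± 0.16) and the serine protease gene Tmprss5 (-0.95 ± 0.18) were also among the larger decreases. Prss41 and Foxb1 had values of -1.13 ± 0.33 and -0.94 ± 0.27, and each lost its call without any 1 of 7 libraries (adjusted p up to 0.113 and 0.120).

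Most genes that glucocorticoid hormones are known to induce rose. Of 36 tested members, 27 rose (75.0%, against 5.67% of all genes) and 0 fell, with a median log2 fold change of 0.55. Fkbp5, a co-chaperone that damps the glucocorticoid receptor, stood at 28.3, 25.1, 24.6 and 34.1 CPM in naive and 60.8, 53.2, 75.2 and 53.1 CPM in morphine libraries (1.10 ± 0.13, adjusted p = 3.09e-04). Nfkbia, the inhibitor of NF-kappa-B, went from 14.7, 16.4, 13.3 and 16.8 to 22.7, 24.2, 32.4 and 28.4 CPM (0.81 ± 0.11). Arrdc2, an arrestin-domain gene, went from 16.0, 16.7, 15.1 and 16.8 to 21.9, 34.0, 36.4 and 31.9 CPM (0.93 ± 0.13), with morphine library 1 the lowest of the 4.

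The other members with the smallest p-values rose by similar steps. Errfi1, an inhibitor of the EGF receptor, rose by 0.51 ± 0.08, Ddit4, an inhibitor of mTOR signalling, by 0.64 ± 0.10, the transcription factor gene Cebpd by 0.96 ± 0.16 and the deubiquitinase gene Usp2 by 0.41 ± 0.07. Cdkn1a, described above, is a member as well. Summed over the list, the level was 1480, 1489, 1264 and 1643 CPM in naive libraries 1 to 4 and 1838, 2028, 2263 and 2051 CPM in the morphine libraries, with no overlap. Between 23 and 28 members were called higher when 1 library was left out. Without morphine 2 and 4, 12 were called and the median was 0.53. With the serotonin score in the model, 4 were called and the median was 0.44, while the median SE went from 0.13 to 0.19. In wild-type libraries, 26 of the 36 rose (2.34% of all genes did) and the median was 0.58.

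Few of these genes held the receptor's palindromic element close to the start site. The letters GNACANNNTGTNC, read on both strands, occurred in the 250 bases before the start in 4 of 32 members that had a RefSeq window (12.5%), against 0.343% of 12814 tested genes. The 4 were Sgk1, Mt1, Fam107a and Map3k6, which the match singled out after the values were known. Sgk1, a kinase that regulates ion channels, rose from a mean of 87.8 to 194 CPM (1.13 ± 0.23) and the kinase gene Map3k6 from 2.14 to 5.05 CPM (1.21 ± 0.22). The metallothionein gene Mt1 (0.15 ± 0.10, adjusted p = 0.392) and Fam107a (0.22 ± 0.18, adjusted p = 0.503) did not pass. A match is a description of the letters and does not show binding. The share in the list depends on which genes were listed and is not a result of these counts.

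**Figure D2:**
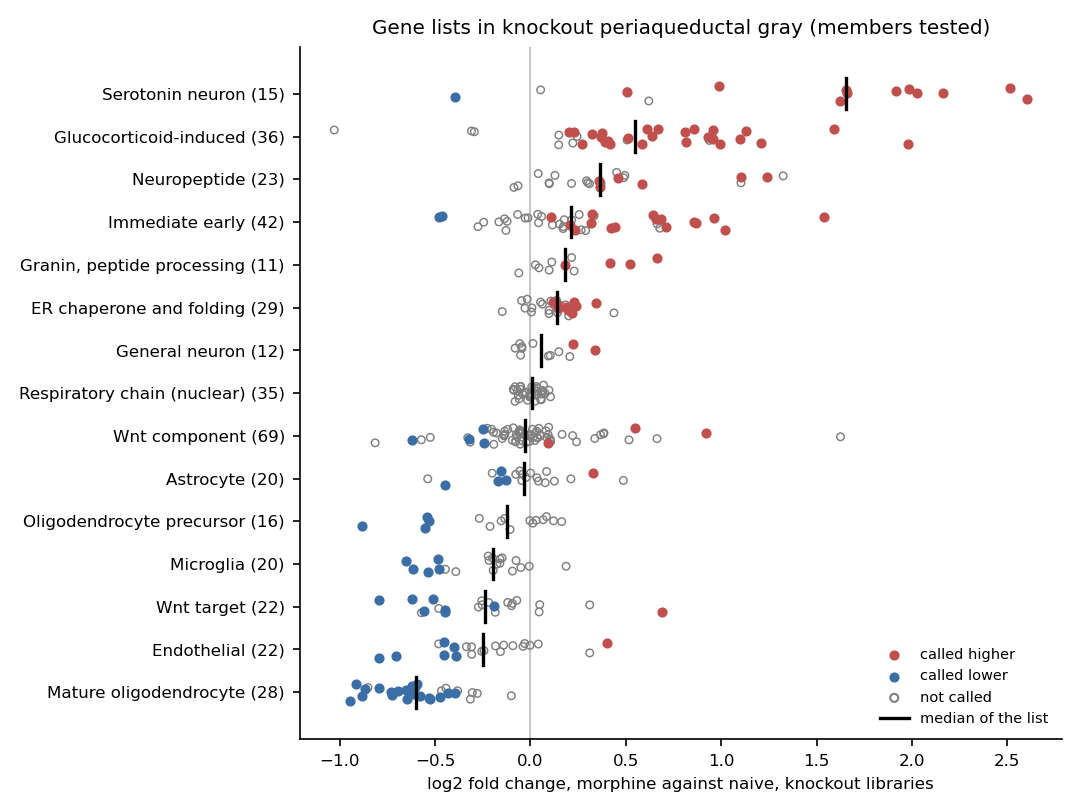
Log2 fold change (x axis) of every tested member of 15 gene lists in the knockout-labelled libraries, 1 point per gene, filled where the gene was called and open where it was not, with the list's median as a bar and the number tested in brackets. The glucocorticoid-induced median lies at 0.55 and the mature oligodendrocyte median at -0.60, while respiratory chain genes gather at 0.01.

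Immediate early genes, which cells switch on within minutes of activity or growth signals, rose in part. Of 42 tested, 16 rose (38.1%, against 5.67% of all genes) and 2 fell (4.76%, against 5.83%), with a median of 0.21. Fosb, a partner of Jun in the AP-1 factor, stood at 2.67, 2.34, 3.93 and 2.87 CPM in naive and 5.95, 8.67, 9.51 and 9.79 CPM in morphine libraries (1.54 ± 0.19, adjusted p = 1.94e-04). Gadd45g, a growth arrest gene, went from 8.79, 10.6, 9.87 and 11.6 to 16.5, 19.1, 19.1 and 19.8 CPM (0.87 ± 0.10). The small Maf gene Maff (0.96 ± 0.16), Csrnp1 (0.64 ± 0.10), the matricellular gene Ccn1 (0.66 ± 0.15), Crem, a cyclic AMP responsive factor (0.32 ± 0.06), and Klf6 (0.21 ± 0.04) rose too. Dusp1, another of the 16, is counted in the glucocorticoid-induced list as well. The other 24 members were not called, among them Fos, Junb, Egr1, Ier2, Nr4a1 and Npas4.

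The 2 lower members, a share below that of all genes, were Dusp6 and Arc. Dusp6, the phosphatase that ERK signalling induces against itself, fell from 15.2, 17.3, 15.5 and 17.2 to 11.3, 12.1, 12.8 and 11.4 CPM (-0.46 ± 0.07), alongside Dusp7 above. Arc, a gene of synaptic plasticity named here after its value was seen, fell from 20.6, 22.6, 23.6 and 24.1 to 14.9, 17.3, 18.0 and 15.2 CPM (-0.48 ± 0.11, adjusted p = 0.0109). In both, every morphine library was below every naive one. The 16 higher calls became 8 without naive 2 and 10 without morphine 2, and 6 without morphine 2 and 4 together, at a median of 0.20. With the serotonin score in the model 4 were called higher, and the median was 0.31.

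Chaperones and folding enzymes of the endoplasmic reticulum, the compartment in which secreted and membrane proteins are folded, rose in part. Of 29 tested, 11 rose (37.9%, against 5.67% of all genes), 0 fell and 18 did not pass. Values ran from -0.15 to 0.44, 25 of the 29 above 0, with a median of 0.14. Hspa5, the main chaperone of the compartment, stood at 267, 276, 304 and 288 CPM in naive and 353, 372, 356 and 358 CPM in morphine libraries (0.34 ± 0.07, adjusted p = 0.00832). Pdia6, a disulfide isomerase, went from 94.5, 92.5, 99.5 and 94.0 to 114, 114, 110 and 111 CPM (0.24 ± 0.05) and Canx, a lectin chaperone of glycoproteins, from 546, 543, 577 and 545 to 606, 633, 597 and 608 CPM (0.14 ± 0.03). None of the 3 overlapped between the groups.

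Hyou1, a nucleotide exchange partner of Hspa5, had 163, 162, 164 and 155 CPM in naive and 178, 192, 179 and 187 CPM in morphine libraries (0.19 ± 0.04). The oligosaccharyltransferase subunit Ostc (0.22 ± 0.04), the disulfide isomerase Pdia3 (0.19 ± 0.04) and Xbp1, a transcription factor of the unfolded protein response (0.23 ± 0.05), rose as well. Txndc5, at 0.12 ± 0.03, lost its call without any 1 of 4 libraries (adjusted p up to 0.0963). Summed over the list, naive libraries held 3282 to 3416 CPM and morphine libraries 3630 to 3746 CPM.

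Some of these genes share a promoter element of endoplasmic reticulum stress. Its share in the list follows from which genes were listed and is not a result of these counts. The endoplasmic reticulum stress element, letters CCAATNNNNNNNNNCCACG on either strand, stood in the 250 bases before the start of 8 of 22 members with a RefSeq window (36.4%), against 0.148% of 12814 tested genes. They were Hspa5, Hsp90b1, Calr, Canx, Pdia6, Dnajc3, Creld2 and Syvn1, of which the first 5 were called higher and the last 3 were not called. The element is shown for 3 of the genes whose values are given above, 5′ to 3′ on the gene's strand, with the matched letters in capitals and the flanks in lower case (RefSeq, GRCm38.p6). In Hspa5 it begins 65 bases before the start (plus strand, chr2:34772005-34772063), in Pdia6 98 bases (plus strand, chr12:17266471-17266529) and in Canx 145 bases (minus strand, chr11:50325780-50325838).
Hspa5: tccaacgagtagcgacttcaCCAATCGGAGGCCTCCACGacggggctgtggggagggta
Pdia6: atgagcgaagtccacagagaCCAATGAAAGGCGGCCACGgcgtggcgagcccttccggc
Canx: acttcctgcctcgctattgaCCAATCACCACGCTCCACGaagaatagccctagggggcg

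The count of called chaperones rested on single libraries. It was 7 without naive 2, naive 4 or morphine 1, and 0 without morphine 2 and 4, while the median was 0.13 in the fits without morphine 2 and 4 and without morphine 1 and 3. With the serotonin score in the model 0 were called at a median of 0.12, and the median SE went from 0.045 to 0.066. Genes of the integrated stress response, the amino acid and translation branch of cell stress, showed 3 higher (15.8%, against 5.67%) and 1 lower (5.26%, against 5.83%) of 19, at a median of 0.06. Ppp1r15a, which reverses the translation block (0.25 ± 0.06), the transporter subunit Slc3a2 (0.17 ± 0.04) and Trib3 (0.81 ± 0.23) were higher, and Vldlr, a lipoprotein receptor, was lower (-0.19 ± 0.04). The first 3 each lost the call without at least 1 library (adjusted p up to 0.0534, 0.0535 and 0.0923), and without naive 2 only 1 gene of the list was called higher. Of 20 cytosolic heat shock genes 1 rose (5.0%, against 5.67% of all genes), Dnajb4 (0.23 ± 0.05).

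Genes of the secretory granule, in which neurons store and cut peptides, rose in part. Of 11 tested granin and processing genes, 4 rose (36.4%, against 5.67% of all genes), 0 fell and 7 did not pass, with a median of 0.18. Scg2, a granin and source of secretoneurin, had 527, 478, 511 and 511 CPM in naive and 663, 820, 609 and 822 CPM in morphine libraries (0.52 ± 0.10, adjusted p = 0.00654). Chgb, chromogranin B, had 280, 279, 271 and 289 and 315, 414, 336 and 428 CPM (0.42 ± 0.10), and Pcsk1, the convertase that cuts peptide precursors, had 27.9, 27.6, 33.4 and 31.4 and 40.3, 59.0, 39.3 and 51.6 CPM (0.66 ± 0.12). In all 3, morphine libraries 2 and 4 were the highest, and libraries 1 and 3 were still above all naive ones. Scg5, a chaperone of the second convertase, showed another order, 178, 175, 185 and 182 CPM in naive and 218, 198, 206 and 192 CPM in morphine libraries (0.18 ± 0.04).

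Without morphine libraries 2 and 4, 2 of the granin genes were called and the median was 0.15. With the serotonin score in the model 1 was called, Scg5, at 0.22 ± 0.06 (adjusted p = 0.0464), while Chgb was at 0.04 ± 0.07 and Scg2 at 0.14 ± 0.08. The cyclic AMP response element in its full palindromic form, TGACGTCA, stood in the 250 bases before the start of Chgb, Scg2 and Pcsk1, 3 of 9 members with a RefSeq window, against 2.83% of tested genes. Among neuropeptide genes it stood in Sst, Ucn and Cartpt, 3 of 17, of which Ucn and Cartpt were not called. These shares, too, depend on which genes were listed and are not a result of these counts. The element is shown in capitals for the 3 granule genes and Sst, which were called higher, in the same form as above. It begins 68 bases before the start in Scg2 (minus strand, chr1:79440067-79440114), 72 in Chgb (plus strand, chr2:132781550-132781597), 78 in Pcsk1 (plus strand, chr13:75089759-75089806) and 48 in Sst (minus strand, chr16:23890865-23890912).
Scg2: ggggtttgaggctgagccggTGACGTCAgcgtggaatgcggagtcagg
Chgb: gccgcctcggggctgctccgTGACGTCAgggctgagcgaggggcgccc
Pcsk1: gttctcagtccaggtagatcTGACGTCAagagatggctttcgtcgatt
Sst: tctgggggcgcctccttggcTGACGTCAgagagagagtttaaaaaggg

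**Figure D3:**
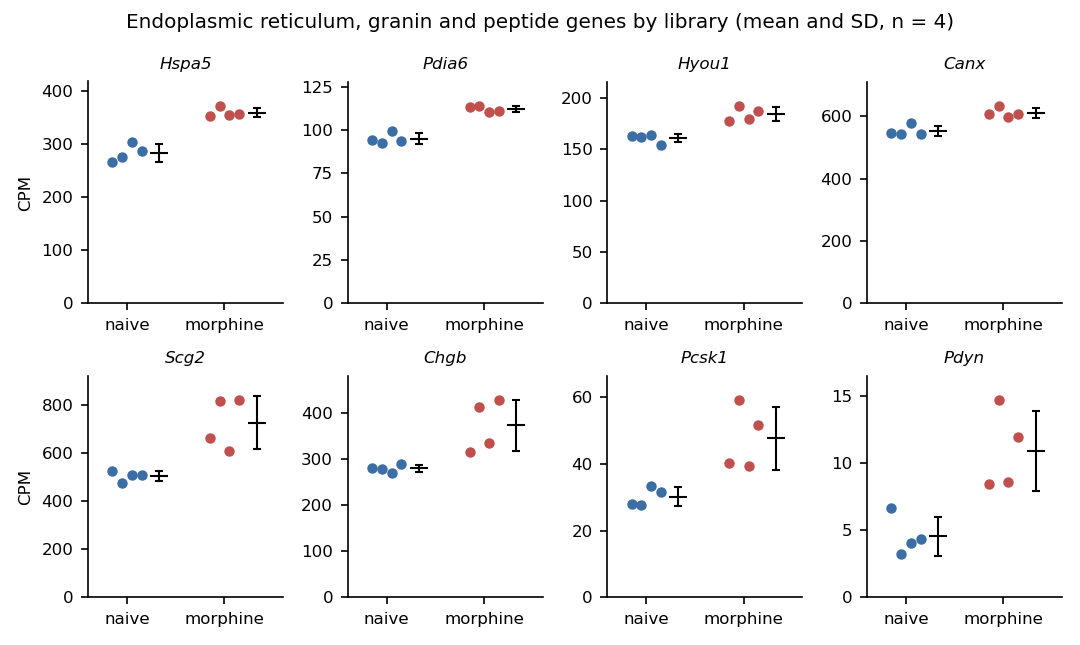
CPM of 4 endoplasmic reticulum genes (upper row) and of 3 granule genes and Pdyn (lower row) in each knockout-labelled library (points, libraries 1 to 4 from left to right; naive blue, morphine red) with mean and SD (n = 4). The upper row shows all morphine points above all naive points, and in the lower row morphine libraries 2 and 4 stand highest.

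Of 23 neuropeptide genes, 6 rose (26.1%, against 5.67% of all genes) and 0 fell, and 21 had a positive value (median 0.36). Both called opioid peptide genes are members of this list. Pdyn, the dynorphin precursor and source of kappa receptor ligands, stood at 6.64, 3.23, 4.03 and 4.32 CPM in naive and 8.41, 14.7, 8.60 and 11.9 CPM in morphine libraries (1.24 ± 0.27, adjusted p = 0.00949), or 2.36-fold. Penk, the enkephalin precursor, stood at 86.5, 80.7, 90.7 and 81.3 and 109, 118, 95.8 and 112 CPM (0.36 ± 0.06, adjusted p = 0.00241). Neither overlapped between groups, and both calls held without any 1 library. With the serotonin score in the model, Pdyn was at 0.40 ± 0.28 (adjusted p = 0.484) and Penk at 0.34 ± 0.10 (adjusted p = 0.0903).

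Vip (1.11 ± 0.31), Npy (0.59 ± 0.18), Nxph4 (0.46 ± 0.13) and Sst, somatostatin (0.36 ± 0.10), were the other 4. Each of these 4 lost its call without several single libraries (adjusted p up to 0.118, 0.120, 0.112 and 0.0885), so that the 6 calls became 2 without naive 2 or naive 3 and 3 without naive 1, naive 4, morphine 2 or morphine 4. It was 0 without morphine 2 and 4 and 0 with the serotonin score. Vip also had 1 high library in each group, number 4, at 25.8 CPM in naive and 52.0 CPM in morphine.

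The receptors on which morphine and these peptides act did not pass the test. Oprm1, the mu receptor, had 11.7, 11.2, 12.4 and 10.6 CPM in naive and 11.1, 12.5, 9.91 and 11.2 CPM in morphine libraries, overlapping groups with a log2 fold change of -0.04 ± 0.09 (adjusted p = 0.866). The gene overlaps Ipcef1 on the other strand. Values for the delta receptor Oprd1, the kappa receptor Oprk1 and the nociceptin receptor Oprl1 were -0.10 ± 0.16, 0.09 ± 0.11 and 0.09 ± 0.04 (adjusted p = 0.758, 0.663 and 0.143). The precursors Pomc and Pnoc were at -0.09 ± 0.17 and 0.04 ± 0.19 (adjusted p = 0.866 and 0.935).

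Downstream of the receptors, 7 of 52 genes of G protein and cyclic AMP signalling rose (13.5%, against 5.67% of all genes) and 3 fell, at a median of 0.06. The share that fell, 5.77%, is close to the 5.83% of all genes. The gamma subunit genes went both ways: Gng2 from 211, 196, 196 and 197 to 244, 265, 219 and 251 CPM (0.29 ± 0.05) and Gng4 by 0.30 ± 0.06 were higher, while Gng7 was lower (-0.21 ± 0.04). The other 2 lower genes encode adenylyl cyclases, the enzymes that make cyclic AMP. Adcy1 went from 196, 210, 202 and 196 to 169, 175, 180 and 162 CPM (-0.23 ± 0.05) and Adcy9 changed by -0.19 ± 0.04. Prkar2b, a regulatory subunit of the cyclic AMP kinase, rose by 0.23 ± 0.05, and Prkar1b by 0.12 ± 0.03, whose call was lost without any 1 of 5 libraries (adjusted p up to 0.0845). Crem, given above among the immediate early genes, is counted in this list as well. The 7 higher calls became 4 without naive 2, 13 without morphine 3 and 1 without morphine 2 and 4, and 1 was made with the serotonin score in the model.

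Among 17 RGS genes, 2 rose (11.8%, against 5.67% of all genes) and 1 fell (5.88%, against 5.83%), with a median of 0.06. Rgs2, which an activated cell induces and which acts on Gq, stood at 49.5, 47.0, 48.0 and 50.5 CPM in naive and 58.7, 66.7, 57.3 and 64.3 CPM in morphine libraries (0.34 ± 0.05, adjusted p = 7.36e-04). Rgs9, the regulator studied in striatal opioid responses, was at 0.27 ± 0.06, and Rgs5, also a pericyte marker, at -0.36 ± 0.10. Their calls were lost without any 1 of 2 and 6 libraries (adjusted p up to 0.0509 and 0.108), and without naive 2 or morphine 4 the list held 1 call.

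Serotonin neuron markers rose by large factors, and their spread among the morphine libraries was wide. Of 15 tested, 11 rose (73.3%, against 5.67% of all genes) and 1 fell (median 1.65), and the 1 that fell, Qdpr, is also in the oligodendrocyte list (-0.40 ± 0.08). Tph2, the brain enzyme of serotonin synthesis, stood at 67.2, 57.9, 13.7 and 98.1 CPM in naive and 191, 544, 154 and 568 CPM in morphine libraries (2.60 ± 0.68). Slc6a4, the serotonin transporter, had 57.2, 45.3, 10.1 and 74.2 and 142, 387, 121 and 431 CPM (2.51 ± 0.66). In both, naive 3 was far below the other naive libraries, and morphine 2 and 4 were far above morphine 1 and 3.

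Genes outside the list that serotonin neurons express were highest in morphine 2 and 4 too. Slc17a8, the third vesicular glutamate transporter and the gene with the largest called fold by the naming rule, had 2.62, 3.00, 1.37 and 4.01 CPM in naive and 12.0, 47.5, 9.81 and 42.7 CPM in morphine libraries (3.31 ± 0.66, adjusted p = 0.00806). Slc10a4, a vesicular protein of monoamine and cholinergic neurons, had 5.94, 5.65, 3.28 and 7.63 and 11.6, 39.0, 16.7 and 37.3 CPM (2.19 ± 0.49). Gchfr, a regulator of the tetrahydrobiopterin enzyme encoded by Gch1, had 1.96 ± 0.46, and Gch1 itself, a list member, 2.03 ± 0.47. Less steep among the list members were the transcription factor genes En1 (1.66 ± 0.33) and Lmx1b (1.62 ± 0.34) and the monoamine oxidase gene Maob (0.99 ± 0.20).

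These calls were fragile. The 11 higher ones became 3 without naive 2, 7 without naive 3, 5 without morphine 2 and 4 without morphine 4, and 0 without morphine 2 and 4 together, where the median was 0.84. Tph2, Slc6a4, Slc18a2 (2.16 ± 0.53), Ddc (1.92 ± 0.45), Fev (1.99 ± 0.57), Gch1, Gchfr, Htr1a (0.51 ± 0.12) and Slc22a3 (1.65 ± 0.40) each lost their call without at least 1 library, with adjusted p up to 0.126 for Fev. En1, Lmx1b, Maob, Slc17a8 and Slc10a4 were called without any 1 library (adjusted p up to 0.0486 for Slc10a4).

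Markers of other nearby nuclei also stood higher in some of the morphine libraries. Slc6a2, the noradrenaline transporter, and Dbh, the enzyme of noradrenaline synthesis, were at most 0.144 and 0.108 CPM in the naive libraries, and in morphine libraries 1 to 4 at 0, 21.4, 0.0503 and 1.88 CPM and at 0, 17.0, 0.0503 and 1.52 CPM. Library 2 had by far the highest CPM of both, library 4 came next, and neither gene passed (adjusted p = 0.0609 and 0.0629). The choline transporter gene Slc5a7 had 4.55, 6.30, 8.79 and 2.72 CPM in naive and 7.75, 52.3, 38.7 and 31.5 CPM in morphine libraries (2.57 ± 0.88, adjusted p = 0.0829), with morphine 1 inside the naive range. Chat, the enzyme of acetylcholine synthesis, followed the same order (1.77, 1.78, 2.81 and 0.768 against 2.15, 18.7, 10.9 and 8.38 CPM, adjusted p = 0.0863).

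Of 10 dopamine neuron markers 3 rose (30%), of 9 motor and cholinergic markers 2 (22.2%) and of 6 noradrenaline markers 0, against 5.67% of all genes. The synuclein gene Sncg (0.56 ± 0.13), the dopamine transporter Slc6a3 (0.59 ± 0.16) and Pitx3 (1.01 ± 0.32) made up the first, Prph (1.29 ± 0.37) and Isl2 (1.55 ± 0.49) the second. All 5 lost their call without at least 1 library, and Prph and Isl2 without any 1 of 7. The dopamine count became 0 without naive 2 and 1 without naive 4 or morphine 4, and the motor count was 0 or 1 without any 1 library. Th, the rate-limiting enzyme of catecholamine synthesis, was at 24.7, 13.9, 15.1 and 13.2 CPM in naive and 20.2, 31.7, 23.5 and 31.7 CPM in morphine libraries (adjusted p = 0.0759).

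Of 12 general neuron markers, 2 rose (16.7%, against 5.67% of all genes), and the median was 0.05. They were Syt1 (0.34 ± 0.07), the calcium sensor of vesicle release, and Stmn2 (0.22 ± 0.05), a microtubule gene of axons. Of 11 GABA neuron markers 2 rose (18.2%), Sst and Calb1 (0.51 ± 0.12), and of 8 glutamate neuron markers 1 (12.5%), Slc17a8. Of 7 glycine markers 1 rose (14.3%), Glra2 (0.45 ± 0.08). A further 1 fell (14.3%, against 5.83% of all genes), the glycine transporter Slc6a9 (-0.23 ± 0.05). The summed general neuron markers were 8268 to 8812 CPM in naive and 8417 to 9159 CPM in morphine libraries.

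**Figure D4:**
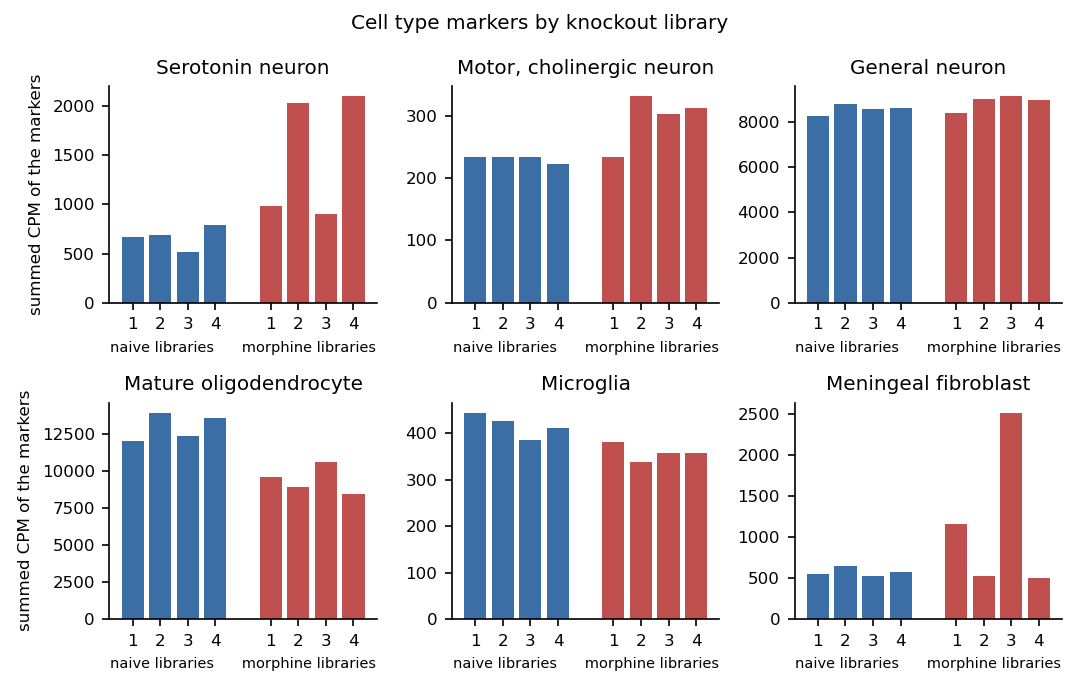
Summed CPM of the markers of 6 cell types in each of the 8 knockout-labelled libraries (bars, naive blue and morphine red, numbered 1 to 4). Serotonin neuron bars of morphine 2 and 4 exceed 2000 CPM, all mature oligodendrocyte bars of the morphine libraries lie below those of the naive libraries, and the meningeal bar of morphine 3 is at 2518 CPM.

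Mature oligodendrocytes, the cells that wrap axons in myelin, had lower marker levels with morphine. Of 28 tested markers, 20 fell (71.4%, against 5.83% of all genes), 0 rose, and all 28 had a negative value, with a median of -0.60. Summed over the list, naive libraries held 12029, 13967, 12382 and 13594 CPM and morphine libraries 9591, 8960, 10644 and 8445 CPM, with no overlap. Sox10, the master transcription factor of the lineage, went from 66.8, 82.4, 73.0 and 71.2 to 47.1, 35.2, 36.8 and 38.9 CPM (-0.89 ± 0.11, adjusted p = 2.98e-04). Every morphine library was below every naive one.

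Car2, a carbonic anhydrase of these cells, had 214, 265, 250 and 265 CPM in naive and 170, 159, 177 and 151 CPM in morphine libraries (-0.60 ± 0.09). The sulfatide enzyme Gal3st1 (-0.65 ± 0.11), the acetylaspartate-cleaving enzyme Aspa (-0.65 ± 0.11), the transcription factor gene Nkx6-2 (-0.73 ± 0.12), the neuregulin receptor Erbb3 (-0.92 ± 0.16) and the protease gene Adamts4 (-0.94 ± 0.11) fell as well. All 7 genes with values in these paragraphs kept their call without any 1 library.

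The 20 calls ranged from 14 to 22 when 1 library was left out, and became 3 without morphine 2 and 4, where the median was -0.52. With the serotonin score in the model 9 were called, the median was -0.70 and all 28 kept their sign. Precursors and newly formed oligodendrocytes showed 4 lower of 16 markers (25.0%, against 5.83% of all genes, median -0.12): Sox10, shared with the list above, Enpp6 (-0.55 ± 0.15), Nkx2-2 (-0.54 ± 0.13) and Bcas1 (-0.53 ± 0.13). The last 3 each lost the call without at least 1 library (adjusted p up to 0.0837), and the count became 1 without naive 4 and 2 without naive 2, morphine 2 or morphine 4.

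Microglia, the resident macrophages of the brain, had 5 of 20 markers lower (25.0%, against 5.83% of all genes) and 0 higher, 19 of the 20 with a negative value (median -0.20). Besides Sall1, they were Cx3cr1, the fractalkine receptor, from 30.9, 30.4, 31.1 and 29.7 to 24.4, 21.6, 19.1 and 21.6 CPM (-0.49 ± 0.07), the integrin gene Itgam (-0.48 ± 0.09), the lipid receptor Trem2 (-0.62 ± 0.11) and the lysophosphatidylserine receptor Gpr34 (-0.54 ± 0.12). All 5 were called without any 1 library. Nrros, described above as a gene of microglia, is not in the list and was higher. The list held 3 calls without morphine 2 and 4 and 2 with the serotonin score in the model. The span of Cx3cr1 in the annotation overlaps that of Csrnp1 and of 3 other genes. The summed list was 386 to 444 CPM in naive and 339 to 381 CPM in morphine libraries.

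Of 22 endothelial markers, 6 fell (27.3%, against 5.83% of all genes) and 1 rose (4.55%, against 5.67%), with a median of -0.25. Kdr, a receptor for the growth factor that Vegfa encodes, went from 11.3, 12.5, 13.5 and 8.93 to 8.57, 5.50, 6.64 and 7.27 CPM (-0.71 ± 0.13) and the tight junction gene Cldn5 from 14.8, 16.4, 17.5 and 14.3 to 11.4, 6.66, 9.35 and 8.61 CPM (-0.79 ± 0.16). The transporters Slco1c1 (-0.39 ± 0.07) and Slco1a4 (-0.40 ± 0.08) and the angiopoietin receptor genes Tek (-0.45 ± 0.11) and Tie1 (-0.45 ± 0.14) were lower, and Mfsd2a, a lipid transporter of the blood-brain barrier, was higher (0.40 ± 0.09). Tek and Tie1 lost their call without any 1 of 2 and 7 libraries (adjusted p up to 0.0544 and 0.147). The 6 lower calls became 10 without morphine 3 and 1 without morphine 2 and 4. Pdgfrb, the growth factor receptor of pericytes, was lower (-0.35 ± 0.08). With Rgs5, it made up the 2 calls of 15 pericyte and smooth muscle markers, both lower (13.3%, against 5.83% of all genes).

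Astrocyte markers split, with 1 of 20 higher (5%, against 5.67% of all genes), Agt, angiotensinogen (0.33 ± 0.07). Another 4 were lower (20%, against 5.83% of all genes, median -0.03). The 4 were Slc1a2, Sox9, Atp1b2 and Slc7a10, and each lost its call without at least 1 library, and 0 were called lower without naive 2, naive 4, morphine 2 or morphine 4. Meningeal fibroblast markers had 0 calls of 15 but a median of 1.22. Their sum was 531 to 643 CPM in naive libraries and 1158, 524, 2518 and 503 CPM in morphine libraries 1 to 4, so that libraries 1 and 3 alone stood apart. Red blood cell (5) and ependymal (11) markers had 0 calls, and of 9 choroid plexus markers 1 was higher (11.1%, against 5.67% of all genes).

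The title of the series names the Wnt pathway. Canonical Wnt signalling stabilises beta-catenin, which then switches on target genes. Of 69 components, 3 rose (4.35%, against 5.67% of all genes) and 4 fell (5.80%, against 5.83%), shares near those of all genes, with a median of -0.03. The receptor Fzd2 (0.55 ± 0.13), the R-spondin gene Rspo2 (0.92 ± 0.21) and the kinase gene Csnk1d (0.09 ± 0.03) rose. Dvl3, a dishevelled adaptor, from 45.9, 47.2, 45.5 and 46.1 to 35.8, 40.5, 40.8 and 39.2 CPM (-0.24 ± 0.04), Bcl9l, a beta-catenin co-factor (-0.32 ± 0.06), the receptor Fzd5 (-0.62 ± 0.18) and the secreted inhibitor Sfrp2 (-0.25 ± 0.08) fell. Fzd2, Csnk1d, Fzd5 and Sfrp2 lost their calls without at least 1 library (adjusted p up to 0.0577, 0.104, 0.139 and 0.116), and the 7 calls became 4 without naive 2 and 3 without morphine 4.

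Of 22 Wnt target genes, 7 fell (31.8%, against 5.83% of all genes) and 1 rose (4.55%, against 5.67%), and 18 had a negative value (median -0.24). Nkd1, a feedback inhibitor, went from 15.5, 17.1, 17.9 and 15.8 to 15.2, 11.5, 11.5 and 10.3 CPM (-0.45 ± 0.09) and Rnf43, a ligase that removes Wnt receptors, from 3.82, 4.52, 4.68 and 4.21 to 3.76, 2.85, 2.62 and 2.40 CPM (-0.56 ± 0.13). In both, morphine 1 was the highest of the morphine libraries. Tnfrsf19 (-0.19 ± 0.05), Jag1 (-0.51 ± 0.10), Foxf2 (-0.62 ± 0.17), Sox9 (-0.45 ± 0.14) and Cldn5 were lower and Cd44 higher (0.69 ± 0.18). Cldn5 is also an endothelial and Sox9 also an astrocyte marker. Foxf2, Sox9 and Cd44 lost their calls without at least 1 library (adjusted p up to 0.0872, 0.136 and 0.0583). The 8 calls became 5 without naive 2. Without morphine 2 and 4, 0 were called at a median of -0.15, and with the serotonin score 1 was called higher and 0 lower, at a median of -0.09.

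Among 19 Notch genes, 2 rose (10.5%) and 3 fell (15.8%), against 5.67% and 5.83% of all genes (median -0.13). Jag1, a Notch ligand, and the target genes Heyl (-0.47 ± 0.09) and Hey1 (-0.16 ± 0.04) were lower, while the receptor Notch4 (0.60 ± 0.14) and Lfng, a glycosyltransferase that tunes Notch (0.25 ± 0.06), were higher. Hey1 lost its call without any 1 of 2 libraries (adjusted p up to 0.0557), and the 3 lower calls became 5 without morphine 1 or morphine 3.

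Clock genes had 1 of 20 higher (5.0%, against 5.67% of all genes) and 4 lower (20%, against 5.83%), with a median of -0.03. Nr1d1, a repressor of the core loop, went from 85.1, 80.0, 70.0 and 77.3 to 53.0, 51.6, 57.2 and 57.0 CPM (-0.52 ± 0.07), and its span overlaps Thra on the other strand. Bhlhe40, Dbp (-0.34 ± 0.09) and Rorb (-0.27 ± 0.06) were the other lower ones, and Per1, which glucocorticoids also induce, was higher (0.42 ± 0.10). Dbp and Rorb lost their calls without at least 1 library (adjusted p up to 0.0614 and 0.0513), and 2 genes of the list were called lower without naive 2.

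Ion channels and receptors of fast signalling had few calls. Of 16 GABA receptor genes 2 rose (12.5%, against 5.67% of all genes), Gabre, given above, and Gabrq, the theta subunit, from 49.3, 38.1, 50.7 and 43.6 to 67.3, 97.7, 65.7 and 73.5 CPM (0.74 ± 0.12). Of 18 ionotropic glutamate receptor genes 0 rose and 2 fell (11.1%, against 5.83%), one being Grin2c (-0.26 ± 0.06), an NMDA receptor subunit. The GABA receptor calls became 4 without morphine 3, and the 2 lower glutamate receptor calls became 1 without naive 1, naive 2, morphine 1 or morphine 2. Among 35 potassium channels 3 rose (8.57%, against 5.67%) and 5 fell (14.3%, against 5.83%), with Kcnc1, a fast delayed rectifier, at -0.24 ± 0.05 and the leak channel gene Kcnk9 at 0.35 ± 0.07. The 8 calls of that list became 2 without naive 2, 3 without morphine 4, 4 without naive 3, morphine 1 or morphine 2, and 5 without naive 1 or naive 4. Of 32 sterol and fatty acid synthesis genes 2 rose (6.25%) and 1 fell (3.12%), shares near or below those of all genes, and Fdft1, squalene synthase, was at 0.20 ± 0.04. Those 3 calls became 1 without naive 2 or morphine 4, and the lower one was also lost without naive 1 or morphine 1. Without morphine 2 and 4, 0 potassium channel genes were called, 2 clock genes and 0 Notch genes. Neither the 33 cytosolic ribosomal protein genes nor the 35 nuclear respiratory chain genes held a call (medians 0.04 and 0.01).

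Set beside the wild-type libraries, part of the calls were shared and part were made at one label only. In wild type, 424 genes were higher (2.34%) and 374 lower (2.07%) with morphine, and no library is shared between the 2 comparisons. Of the 2082 calls with the knockout label, 384 were called the same way in wild type, 197 higher and 187 lower. That is 18.4% of the knockout calls and 48.1% of the wild-type calls, and 1 gene was called in opposite directions. Cdkn1a (1.98 ± 0.16 with the knockout label, 2.23 ± 0.16 in wild type), Fosb (1.54 ± 0.19 and 1.40 ± 0.18) and Sall1 (-0.65 ± 0.05 and -0.60 ± 0.04) had like values. Interaction values, knockout minus wild type, were -0.25 ± 0.22, 0.14 ± 0.26 and -0.05 ± 0.06.

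For oligodendrocyte markers, 20 of 28 fell with the knockout label and 4 in wild type, with medians of -0.60 and -0.03. The wild-type sums were 11537, 7910, 10961 and 13338 CPM in naive and 10835, 12154, 10558 and 11901 CPM in morphine libraries. Wild-type naive library 2, the lowest, also held 2478 CPM of meningeal markers, against 449 to 566 CPM in the other wild-type naive libraries. The part of that library in the wild-type medians was not tested. Car2 was at -0.60 ± 0.09 and -0.15 ± 0.09 and Aspa at -0.65 ± 0.11 and -0.24 ± 0.10. Among serotonin markers 0 of 15 were called in wild type (median 0.37), with Tph2 at 0.80 ± 0.64 there. Their wild-type sums overlapped, at 1277, 547, 661 and 999 CPM in naive and 1064, 1284, 1049 and 1304 CPM in morphine libraries. Chaperones showed 3 of 29 higher in wild type (median 0.08). Kdr (-0.96 ± 0.13 in wild type), Jag1 (-0.94 ± 0.10) and Rnf43 (-1.05 ± 0.13) had lower values in wild type than with the knockout label.

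None of these differences by label passed its own test in the main fit. The interaction had 0 genes past the threshold with edgeR and 0 with limma-voom, and 107 with DESeq2's Wald test, while 2200 genes had an unadjusted p under 0.05 with edgeR. Among the smallest interaction p-values of genes called with the knockout label were those of Npy2r (0.81 ± 0.14, edgeR adjusted p = 0.106) and the plexin gene Plxnb3 (-0.61 ± 0.10, 0.106). Further on, Ass1 (0.25 ± 0.05) and the glypican gene Gpc4 (0.59 ± 0.13) had an adjusted p of 0.143 and 0.143.

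Plxnb3, a semaphorin receptor of oligodendrocytes, stood at 66.4, 77.8, 72.8 and 71.8 CPM in knockout-labelled naive, 43.2, 46.1, 52.1 and 44.2 CPM in knockout-labelled morphine, 65.1, 50.5, 60.9 and 61.2 CPM in wild-type naive and 54.9, 62.0, 58.8 and 56.4 CPM in wild-type morphine libraries. The knockout-labelled morphine libraries were the lowest group, with wild-type naive library 2 inside their range. The knockout-labelled naive libraries were the highest group, above every wild-type naive library, so the interaction value also holds a difference between the naive groups. Npy2r had 6.72, 6.04, 5.45 and 5.56 CPM in wild-type naive and 6.16, 5.44, 5.64 and 5.63 CPM in wild-type morphine libraries, where the groups overlapped, beside the clear step with the knockout label given above. Its knockout-labelled naive values overlapped the wild-type naive ones but reached lower. For the interaction the number of calls was 56 without knockout morphine 3, 16 when morphine 3 of the wild type was left out, 1 in the fits without morphine 4 or naive 3 of the wild type, and 79 without knockout morphine 1 and 3.

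**Figure D5:**
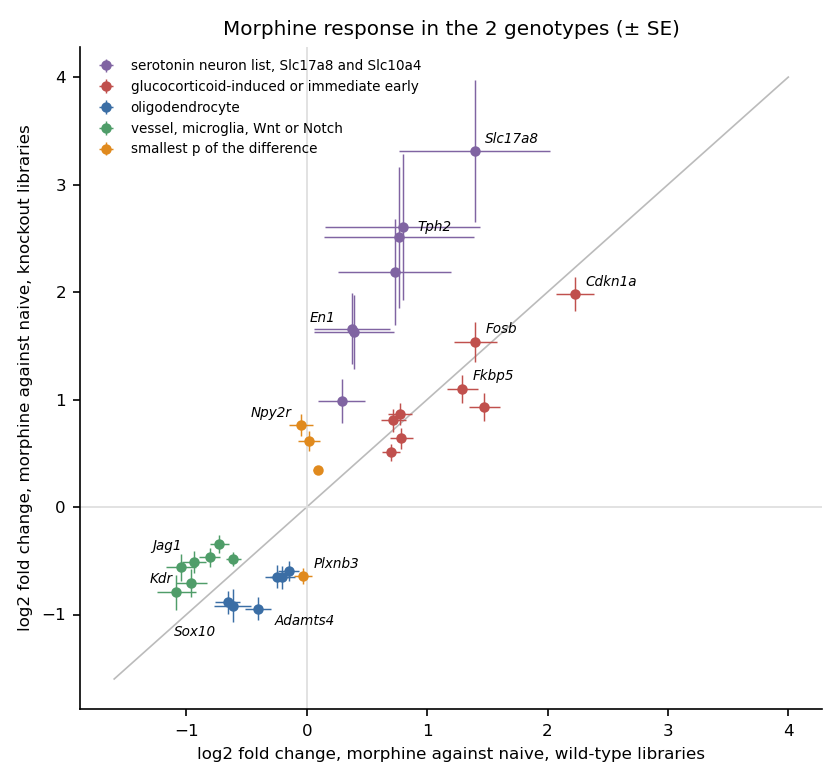
Log2 fold change with morphine in knockout-labelled libraries (y axis) against that in wild-type libraries (x axis) for 32 genes named in the text, with SE bars and the line of equal values. Serotonin neuron genes lie above the line, glucocorticoid-induced and immediate early genes near or below it, and oligodendrocyte genes below it, and no interaction passed edgeR's threshold.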

How the data were processed

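PolyA RNA from periaqueductal gray punches was sequenced in 16 libraries, each of 2 pooled animals, 4 per group of genotype and treatment, which the labels call biological replicates. The authors deposited raw counts per gene, and per the submitters' processing notes HTSeq, limma and the mm10 build were used. The aligner, the annotation and how strand was treated are not stated in these sources, and per the labels' protocols the kit does not mark strand, so a read where genes of either strand overlap cannot be assigned. This touches 21 of 173 genes used in the text, among them Cx3cr1, Csrnp1, Gpr34, Adamts4, Oprm1, Rgs20, Nr1d1, Dbp, Pdia6, Cebpd, Slc6a9 and Fdft1. Between 38.2% and 40.6% of each library's counts stood in HTSeq's summary rows for reads not assigned to a gene, whatever the reason. They were left out of library sizes, and all 37 mitochondrial genes were at 0. Of 38924 gene IDs, 37607 matched GENCODE M21, which gave names and coordinates (GRCm38).

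From these counts, edgeR 4.0.16 (R 4.3.3; TMM, filterByExpr with a minimum count of 10, robust quasi-likelihood fit) was run on all 16 libraries with 1 coefficient per group, testing 18111 genes with Benjamini-Hochberg adjustment at 0.05. Errors of log2 fold changes are standard errors derived from that fit, as the absolute log2 fold change over the square root of its F statistic. Total counts ranged from 19.1 to 55.0 M (1 M is 1000000), and the common biological coefficient of variation was 0.0835. In a simulation of the knockout comparison on 18111 genes, 46% of genes changed 1.25-fold, 80% changed 1.5-fold and 94% changed 2-fold were recovered. There, 8 of 166 calls were false. Each gene was drawn on its own, with no shift in marker content shared by a library, so that false share need not hold for the real libraries. Every pair of replicates differed beyond sampling noise (at least 3.72 chi-square units per gene).

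Alternatives were DESeq2 1.42.0 (size factors and Wald test), limma-voom (limma 3.58.1), other filters, thinning to 19.1 M counts, the 8 knockout libraries alone, a replicate block, a serotonin marker score as covariate and leaving out libraries. Leaving out morphine libraries 2 and 4, or 1 and 3, was chosen after seeing the data. The genes described and the 42 gene lists were chosen with earlier results of these data known. Named genes were the 12 largest and 12 smallest-p calls in each direction at a mean log2 CPM of at least 1, up to 8 smallest-p members of each list, the opioid receptor and peptide genes, Rgs20, and the 5 called genes per direction with the smallest interaction p. Sgk1, Map3k6, Mt1, Fam107a and Arc were added after their values were seen. The same holds for the immediate early genes Dusp1, Fos, Junb, Egr1, Ier2, Nr4a1 and Npas4, which are named without values. Promoter windows are RefSeq's (GRCm38.p6), searched for 3 motifs in the 250 bases before the start, on both strands.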

Additional observations from a re-analysis of the deposited data

Results flagged for a closer look

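In some groups of 4 libraries, 1 library lay apart from the other 3, by a gap ratio (gap to the nearest library over the whole range) above Dixon's critical value. This was checked in 430 groups of values (genes used in the text and summed lists, naive and morphine separately), and 26 passed. Chance alone passes about 1 in 20 such groups, that is, a number of this order.

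Among the naive knockout-labelled libraries, library 1 was the highest for Gng2 (211 CPM, gap ratio 0.946) and Th (24.7 CPM, 0.842) and the lowest for Pomc (1.1 CPM, 0.833) and for the sum of RGS genes (921 CPM, 0.863). Library 2 was the highest for Erbb3 (35.8 CPM, 0.935), Tie1 (11.7 CPM, 0.853) and Hey1 (40.5 CPM, 0.846), and the lowest for Vwa5a (20.6 CPM, 0.879). Library 3 was the highest for Canx (577 CPM, 0.923) and the lowest for Dbp (37.1 CPM, 0.948). Library 4 was the highest for Vip (25.8 CPM, 0.949) and the lowest for Sfrp2 (7.63 CPM, 0.863) and for the sum of motor and cholinergic markers (223 CPM, 0.976).

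Among the morphine libraries, library 1 was the highest for Trim59 (18.9 CPM, 0.847), Erbb3 (24.4 CPM, 0.911) and the sums of glutamate neuron (580 CPM, 0.95) and cerebellar markers (217 CPM, 0.882). It was the lowest for Vegfa (63.0 CPM, 0.835) and Usp2 (33.2 CPM, 0.849). Library 2 was the highest for the noradrenaline genes Slc6a2 (21.4 CPM, 0.912) and Dbh (17.0 CPM, 0.911) and for the sum of RGS genes (969 CPM, 0.883). Library 3 was the highest for Gal3st1 (12.6 CPM, 0.843) and the lowest for the sum of opioid signalling genes (9750 CPM, 0.885). Library 4 was the highest for Vip (52.0 CPM, 0.926) and for the sum of ependymal markers (297 CPM, 0.957).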

How the results depend on the processing

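Of the 2082 knockout calls, 1511 to 2030 were shared, all in the same direction, by 8 fits with another scaling, filter, tool, depth or set of libraries (1636 to 2405 calls). The count was 354 with the serotonin score as covariate, 359 without morphine 2 and 4, and 1037 to 2260 with 1 library left out. With the score, calls fell to 4 of 27 for glucocorticoid-induced, 4 of 16 for immediate early, 0 of 11 for chaperone, 0 of 11 for serotonin, 1 of 4 for granin and 9 of 20 for oligodendrocyte genes. Without morphine 2 and 4 they were 12, 6, 0, 0, 2 and 3, and the cause was not tested, though fewer libraries enter. Without morphine 1 and 3, 7 chaperone genes were called, and with the 8 knockout libraries alone 6 serotonin genes. With 1 library left out the ranges were 23 to 28, 8 to 16, 7 to 10, 3 to 12, 4 to 5 and 14 to 22. The score reversed Slc6a4 (-0.0092), Fev (-0.33), Sst (-0.0084) and Slc22a3 (-0.022). It is the mean of the serotonin markers, among them Slc6a4, Fev and Slc22a3, so the loss of calls in that list was built in and tests nothing. Interaction calls were 1 with no filter, 107 with DESeq2's Wald test, 79 without morphine 1 and 3, and 0 to 56 with 1 library left out. Wild-type calls were 1242 with DESeq2's Wald test and 512 with the replicate block. With the replicate block, 1732 knockout genes were called, 1682 of them shared. Same-numbered knockout libraries had deviations that correlated at 0.011 to 0.133, and differently numbered ones at -0.113 to 0.122. So few values cannot decide whether the numbers pair the libraries. The shallowest library, morphine 2, had 19.1 M counts.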

Other observations

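Of 16 midbrain and tectum identity genes, 2 were lower with the knockout label (12.5%, against 5.83% of all genes), Foxb1 and Nkx2-2. Of the 16, 14 had a negative value (median -0.16). The summed level was 253 to 301 CPM in naive and 226 to 275 CPM in morphine libraries. Foxb1 lost its call without any 1 of 7 libraries and Nkx2-2 without naive 4 or morphine 2, and 0 were called without morphine 2 and 4 together. Nkx2-2 is also counted among the precursor and newly formed oligodendrocyte markers above. Lhx4, a LIM homeobox transcription factor gene, stood at 0.451, 1.10, 1.12 and 0.417 CPM in naive and 1.39, 7.35, 7.44 and 8.86 CPM in morphine libraries (3.07 ± 0.83, edgeR adjusted p = 0.0323), and its call was lost without any 1 of 7 libraries (adjusted p up to 0.0907). Tmem114, by contrast, was called without any 1 library (1.70, 1.41, 0.901 and 1.93 against 4.49, 6.61, 2.87 and 7.63 CPM, 1.84 ± 0.39). Of 23 interferon response genes 1 was higher (4.35%, below the 5.67% of all genes). Its call was kept only without morphine 4 among the fits that leave out 1 library.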
